A study of Mus musculus with 20 samples.

Results

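The genes described here encode the proteasome. They are the rows of the count table whose symbol starts with Psma, Psmb, Psmc, Psmd or Psme followed by a digit, with pseudogene symbols left out, and they number 44 of 18054 genes. Ribosome footprints, the mRNA stretches that ribosomes shield from nuclease, and input RNA from the same lysates were sequenced from the hippocampus of mice. Mice without Qtrt1 (genotype Qtrt1-/-, called knockout below) were compared with wild-type mice. The Qtrt1 protein does the catalysis in the enzyme that puts the modified base queuosine into tRNAs for tyrosine, histidine, asparagine and aspartate. Each of 10 animals gave 1 footprint and 1 input library, and the labels give each animal its own number. The females were 3 wild types and 3 knockouts, all 6 months and 21 or 22 days old. The males were 2 wild types and 2 knockouts. Male 1 of each genotype was 6 months and 18 days old and male 2 was 5 months and 16 days old, so the male number and the age go together.

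The proteasome is the protease that degrades proteins tagged with ubiquitin. Its core is a barrel of alpha rings (Psma genes), which gate the entry, around beta rings (Psmb genes), which hold the catalytic sites. A cap sits on the core: its base is a ring of ATPases (Psmc genes) with a few scaffold and ubiquitin-binding proteins, and its lid (most Psmd genes) carries the enzyme that removes ubiquitin before the substrate is threaded into the barrel. Other members are inducible beta subunits of immune cells, activators that replace the cap (Psme genes) and chaperones that assemble the base. Neurons use the proteasome at synapses, and it is needed for several forms of plasticity.

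Footprint libraries held 5357812 to 15517982 counts and input libraries 9000662 to 13637370. Qtrt1 itself had 28 to 94 footprint counts in wild types, against 1 to 10 in knockouts. Markers of neighbouring tissue and of some cell types differed between the female groups. The summed level of 10 choroid plexus genes in footprints had a lowest, median and highest value of 148, 293 and 5750 CPM (counts scaled to library size) in the wild-type females, against 2226, 7141 and 9307 CPM in knockouts. For 10 striatal genes these values were 388, 861 and 1004 CPM, against 161, 231 and 504 CPM in the knockouts. For 10 genes of hippocampal neurons they were 646, 863 and 1065 CPM against 1057, 1072 and 1174 CPM. For 8 genes of cortex and subiculum they were 527, 625 and 657 CPM against 416, 443 and 495 CPM. For 8 genes of meninges and fibroblasts they were 152, 172 and 294 CPM against 312, 365 and 407 CPM. For 7 astrocyte genes they were 6701, 6918 and 7307 CPM against 7348, 7390 and 7713 CPM. For 5 erythrocyte genes they were 35.6, 53.2 and 56.2 CPM against 73.2, 86.3 and 132 CPM. The sums of oligodendrocyte and endothelial genes overlapped between the female groups. In male footprints the choroid plexus sums were 11802 and 12363 CPM in wild types, against 8875 and 13925 CPM in knockouts. Those of cortex and subiculum were 464 and 566 against 401 and 446 CPM, and those of meninges 379 and 390 against 271 and 365 CPM. Striatal sums were 161 and 224 against 163 and 193 CPM, and hippocampal ones 1103 and 1169 against 1151 and 1342 CPM. Astrocyte sums were 6178 and 6399 against 6110 and 6571 CPM, and erythrocyte ones 75.3 and 96.5 against 83.0 and 144 CPM. No gene of these lists was at 0 in every animal of a group. The part of these markers in the female results below was not tested. Fewer cells of a type and less RNA per cell cannot be told apart in these bulk samples.

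Of the 44 genes, 42 passed the filter on low counts. The alpha subunit Psma8, made in testis, and the beta subunit Psmb11, made in thymus, did not. Differences below are knockout minus wild type on the log2 scale with the standard error of the fit. A call means that edgeR's quasi-likelihood test gave an adjusted p under 0.05, with Benjamini-Hochberg adjustment over all genes tested.

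In females, 5 proteasome genes rose in knockout footprints and none fell, in the fit that held both sexes. They were the alpha subunits Psma1 and Psma4, the lid subunits Psmd12 and Psmd6, and the base chaperone Psmd5, each 1.29 to 1.41 times its wild-type level. The 5 calls are 5 of 42, while 7.06% of all genes tested were called in this comparison and 2.81% were called higher. The median difference of the 42 genes was 0.09, against 0.00 over all genes tested, and 24 of the 42 lay above 0. At an unadjusted p under 0.05 there were 11 members, and 25.6% of all genes tested were at that level.

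Psma1 is an outer-ring subunit of the barrel. Its footprint level was 162, 161 and 180 CPM in wild-type females 1 to 3, against 243, 245 and 215 CPM in knockout females 1 to 3. In males it was 180 and 139 CPM in wild types, against 183 and 200 CPM in knockouts. Every knockout lay above every wild type of its sex. The female difference was 0.48 ± 0.11 (adjusted p = 0.0244) and the male one 0.26 ± 0.14 (adjusted p = 0.963).

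Psma4, another alpha subunit, had 52.5, 43.0 and 59.4 CPM in footprints of wild-type females, against 65.3, 80.4 and 73.9 CPM in those of knockout females. The female groups did not overlap, and the difference was 0.50 ± 0.13 (adjusted p = 0.0369). In males the wild types had 69.6 and 69.2 CPM, between the 68.3 and 78.1 CPM of the knockouts. Of the coding sequence of Psma4, 63.0% of the stretches of 28 bases also occur in transcripts of other genes, so its count depends on how shared reads were assigned.

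Psmd12, a lid subunit, stood at 215, 194 and 214 CPM in wild-type female footprints and at 296, 300 and 254 CPM in knockout ones, a difference of 0.45 ± 0.11 (adjusted p = 0.0359). Psmd6, also of the lid, stood at 143, 151 and 145 CPM against 189, 198 and 180 CPM (0.37 ± 0.10, adjusted p = 0.0382). The female groups did not overlap for either gene. The male groups overlapped for both: Psmd12 had 207 and 186 CPM in wild types, against 189 and 246 CPM in knockouts.

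Psmd5 binds the base ATPases while the base is put together and then leaves. It had 70.2, 74.1 and 76.9 CPM in the wild-type females, against 97.0, 93.4 and 98.7 CPM in the knockouts. The difference was 0.39 ± 0.09 (adjusted p = 0.0295). In males the values were 80.8 and 76.0 CPM against 85.6 and 86.3 CPM, again with every knockout above every wild type (0.13 ± 0.11, adjusted p = 0.963). None of the 5 calls held when wild-type female 1 or 2 or knockout female 1 or 2 was left out: the count fell to 0, and omitting female 3 of either genotype left 2. Over those 6 omissions the 5 differences stayed between 0.33 and 0.61. Without wild-type females 1 and 2 together, the animals with the lowest choroid plexus sums, the 5 differences were 0.32 to 0.42 and the count was again 0.

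**Figure D1:**
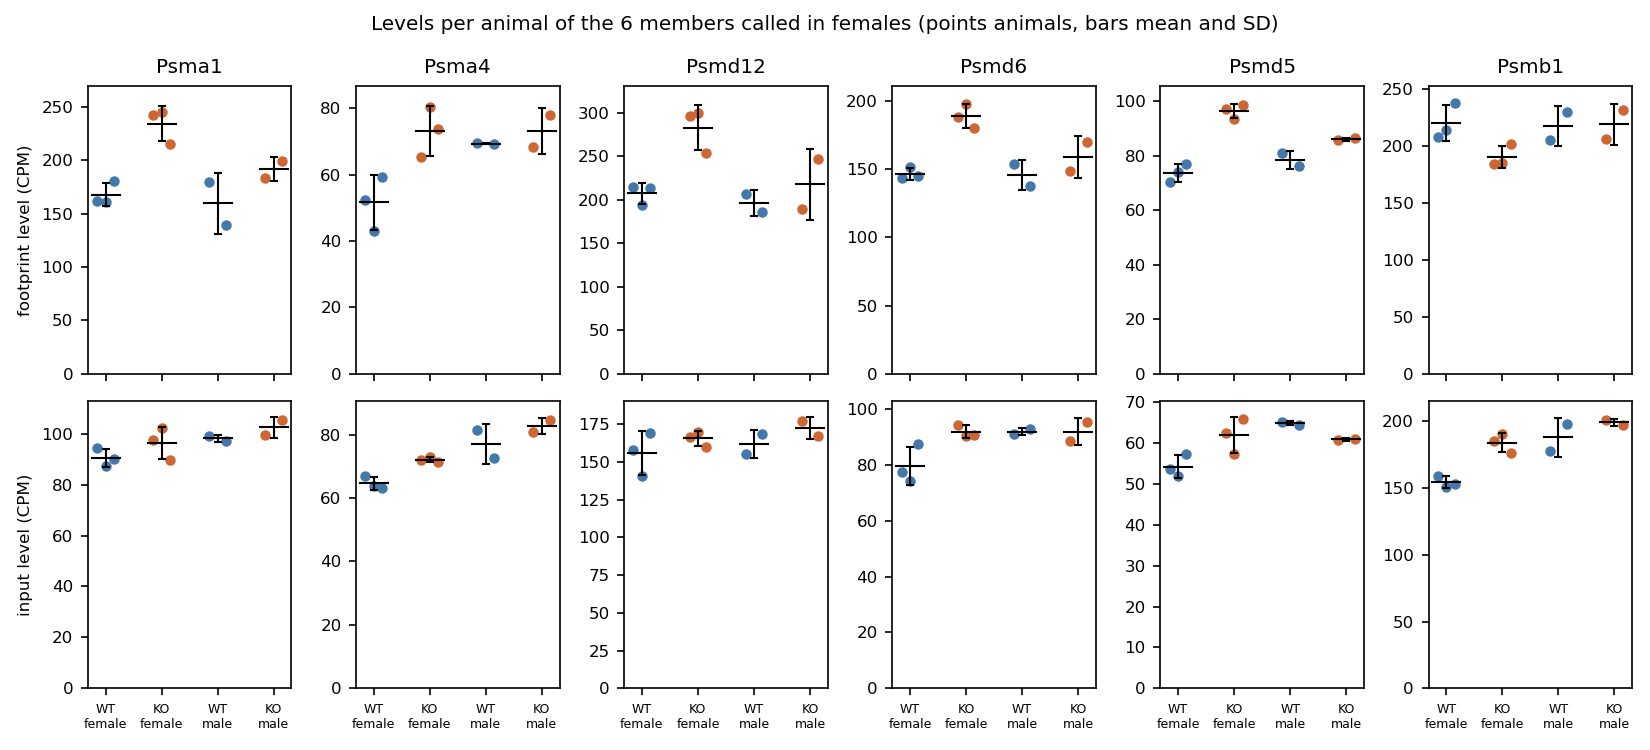
Footprint level (top) and input level (bottom) in CPM of the 6 proteasome genes called in females, by sex and genotype. Points are animals, bars the mean and SD. For Psma1, Psma4, Psmd12, Psmd6 and Psmd5 all 3 knockout females lie above all 3 wild-type females in footprints, and for Psmb1 they lie above them in input and below them in footprints.

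By class, the called genes included, 6 of 7 alpha ring genes lay above 0 in female footprints, with a median of 0.26, and Psma2 was at -0.16. In the beta ring 5 of 7 lay above 0. The 3 subunits with active sites were among them: Psmb5, which cuts after hydrophobic residues, was at 0.22 ± 0.21, Psmb6, which cuts after acidic ones, at 0.18 ± 0.11, and Psmb7, which cuts after basic ones, at 0.26 ± 0.11. The structural beta subunits Psmb1 and Psmb4 lay below 0, at -0.21 ± 0.10 and -0.31 ± 0.12 (adjusted p = 0.200 and 0.112). With females fitted alone edgeR called Psmb4 as lower (adjusted p = 0.0489).

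The ATPase ring, which unfolds substrates, was the class with the lowest median among the core and cap classes. Of its 6 genes, 5 lay below 0, between -0.15 for Psmc5 and -0.31 for Psmc3, and Psmc6 lay at 0.27 ± 0.12 (adjusted p = 0.175). Psmc2 had 228, 217 and 225 CPM in the wild-type females, against 172, 201 and 186 CPM in knockout ones (-0.26 ± 0.09, adjusted p = 0.0918). Psmc3 had 211, 219 and 212 CPM against 161, 174 and 184 CPM (-0.31 ± 0.13, adjusted p = 0.151). The groups of both genes were apart, yet neither difference passed in the fit that held both sexes. With females fitted alone edgeR called Psmc3 as lower (adjusted p = 0.0284). Among the other base subunits, the ubiquitin receptor Psmd4 was at -0.06 ± 0.11. In the lid 6 of 8 genes lay above 0, with a median of 0.18. The lid's deubiquitinating enzyme Psmd14 was at -0.02 ± 0.12. The chaperones Psmd10 and Psmd9 were at 0.47 ± 0.21 and -0.06 ± 0.13.

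In all, the 3 knockout females lay above the 3 wild-type females in footprints for 14 of 42 genes and below them for 6. Over all genes tested these shares were 17.1% and 17.8%. In males the counts were 5 and 2, against 13.2% and 13.7% of all genes.

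**Figure D2:**
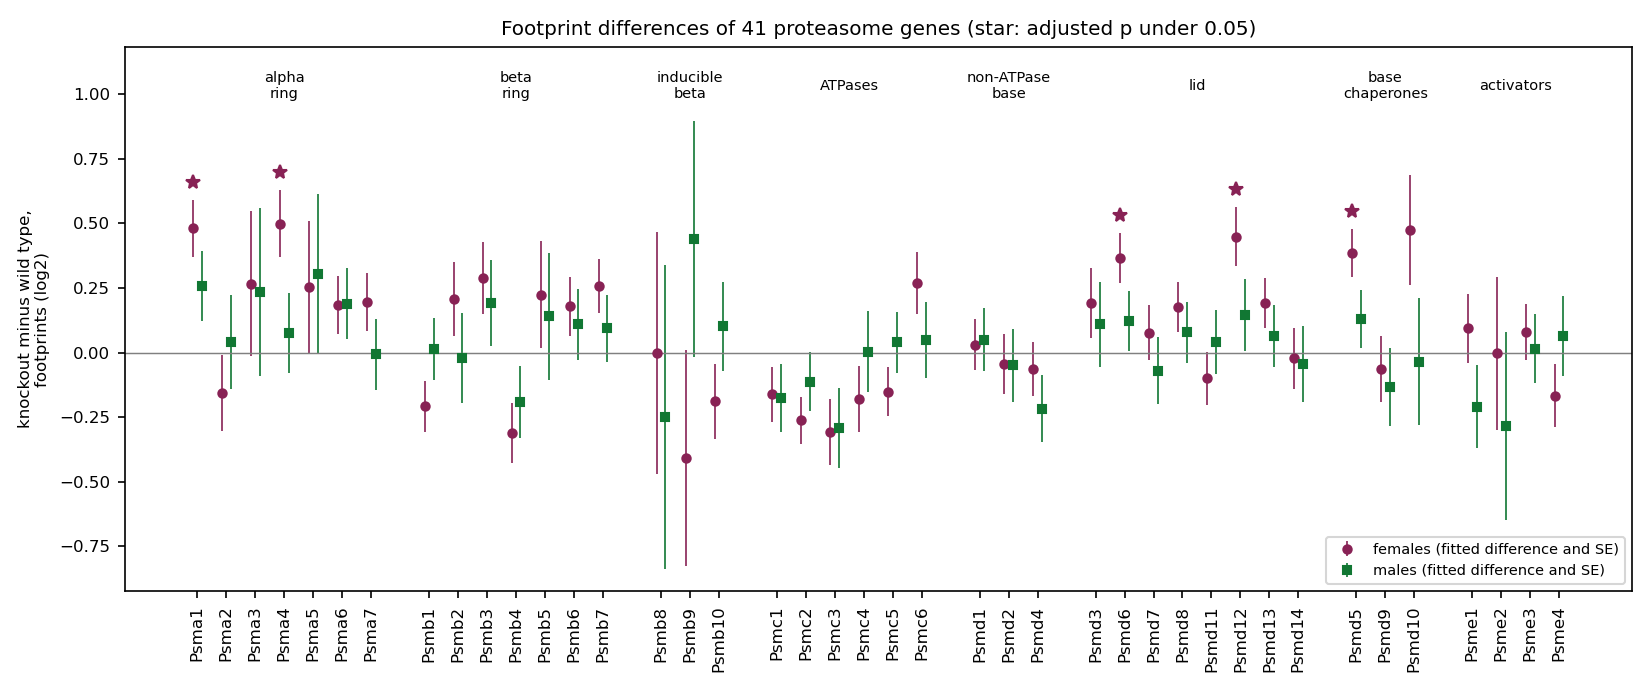
Knockout minus wild type in footprints (log2, fit and standard error) for 41 proteasome genes by class, in females (circles) and males (squares). Stars mark the 5 female calls. Of the 6 ATPase genes, 5 lie below 0 in females, and 6 of the 7 alpha genes lie above 0 in either sex.

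The inducible beta subunits and the activators did not pass the test in either sex. Psmb8 and Psmb9 were close to the detection limit, with at most 2.9 and 1.9 CPM in any footprint library. Psmb9 had the lowest female difference (-0.41 ± 0.42) and the highest male one (0.44 ± 0.46), and Psmb10, at 10.8 to 14.5 CPM, was at -0.19 ± 0.15 in females. Microglia and genes of antigen presentation, the usual setting of these subunits, were also followed. The summed level of 10 microglial genes in footprints was 830 to 919 CPM in the wild-type females, against 824 to 950 CPM in the knockouts. That of 13 antigen presentation and interferon genes was 466 to 497 CPM against 532 to 614 CPM. Psme1 and Psme2, which form the interferon-induced activator, were at 0.09 ± 0.13 and -0.00 ± 0.30 in females and at -0.21 ± 0.16 and -0.29 ± 0.36 in males. Psme3, the nuclear activator, was at 0.08 ± 0.11 in females. Psme4, the large activator known from testis and DNA repair, was at -0.17 ± 0.12. Psmc3ip carries a member's name but encodes a partner of meiotic recombinases and no subunit. Its 0.3 to 1.7 CPM in footprints gave the highest female difference, 1.09 ± 0.52 (adjusted p = 0.204).

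In male footprints no member was called by edgeR or DESeq2, and edgeR called 0% of all genes. No member and 4.28% of all genes reached an unadjusted p under 0.05. The lowest male difference was that of Psmc3, at -0.29 ± 0.16. With 2 animals a group the median standard error of a member was 0.15 in males and 0.12 in females. The female difference minus the male difference was tested directly. By edgeR it was called for none of the 42 genes and for 0% of all genes. At an unadjusted p under 0.05 there were 0 members and 8.44% of all genes. DESeq2 called no member and 27 of all genes, and gave 3 of the 42 members no adjusted p. For the 5 genes called in females the female minus male difference ran from 0.22 (Psma1) to 0.42 (Psma4), with edgeR adjusted p from 0.596 to 0.776. As the mean of both sexes, edgeR called no member and 0.00761% of all genes. At an unadjusted p under 0.05 there were 9 members and 19.6% of all genes. DESeq2 called Psma1 and Psmd12, and 528 of all genes. When wild-type male 1 was left out, edgeR called 5 members: Psma1, Psmd5 and Psmd6 as higher and Psmb4 and Psmc3 as lower. The share of all genes called under that omission was not computed.

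In female input RNA Psmb1 rose, as 1 of 42 members, while 3.48% of all genes were called and 0.748% were called higher. Psmb1 is a structural beta subunit with no active site. Its input level was 159, 151 and 153 CPM in the wild-type females, against 185, 191 and 176 CPM in the knockouts, with no overlap, and the difference was 0.25 ± 0.06 (adjusted p = 0.0420). In males it was 178 and 198 CPM against 201 and 198 CPM. The call was lost (adjusted p from 0.0563 to 0.155) when any 1 of the 6 females or either knockout male was left out.

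The median input difference of the 42 genes in females was 0.08, against 0.01 over all genes tested, and 29 lay above 0. The members called in footprints had input differences of 0.09 (Psma1), 0.16 (Psma4), 0.09 (Psmd12), 0.20 (Psmd6) and 0.19 (Psmd5). Psmb9 had the highest value in females, males and both sexes (0.37, 0.72 and 0.54), at no more than 1.2 CPM in any library. The lowest was Psmb10 in females (-0.19), Psme2 in males (-0.38) and the lid subunit Psmd11 in both sexes (-0.17 ± 0.07, adjusted p = 0.205), next to Psmb7 (-0.17 ± 0.04, adjusted p = 0.0768). In male input neither edgeR nor DESeq2 called a member, and edgeR called 0% of all genes. At an unadjusted p under 0.05 edgeR had 2 members and 8.8% of all genes. As the mean of both sexes edgeR called no member and 0.734% of all genes. At an unadjusted p under 0.05 there were 5 members and 17.6% of all genes. DESeq2 called Psmb7 as lower in this mean, and 409 of all genes. For the female minus male difference edgeR called no member and 0% of all genes. At an unadjusted p under 0.05 there were 3 members and 9.45% of all genes. DESeq2 called no member there, but it gave 29 of the 42 no adjusted p, so those could not be called.

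The footprint level relative to input showed the genes whose 2 measures parted. Without the animal in the model, edgeR called no member in females and 0.0424% of all genes. At an unadjusted p under 0.05 there were 8 members and 12.6% of all genes. Footprint and input libraries come from the same animals, and with the animal as a block 4 members were called, while 2.79% of all genes were. Psma1 and Psmb7 had a higher ratio in knockout females (0.41 ± 0.10 and 0.39 ± 0.10 with the block, adjusted p = 0.0351 and 0.0328). Psmb1 and Psmb4 had a lower one (-0.44 ± 0.10 and -0.46 ± 0.10, adjusted p = 0.0189 for both). DESeq2 without the block called Psmb1 and Psmb4, and 132 of all genes.

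The log2 ratio of Psmb4 was 0.00, -0.10 and -0.07 in the wild-type females, against -0.66, -0.52 and -0.42 in the knockouts. Its male values were -0.33 and -0.05 in wild types, against -0.31 and -0.44 in knockouts, so the male groups overlapped. The ratio of Psmb7, the trypsin-like subunit, was -0.13, -0.26 and -0.11 in the wild-type females, against 0.28, 0.22 and 0.13 in the knockouts. In males it was -0.02 and -0.20 against 0.09 and 0.31, again with every knockout above every wild type. As the mean of both sexes Psmb7 was the 1 member called with the block (0.36 ± 0.08, adjusted p = 0.0328), and 0.806% of all genes were called. Without the block edgeR called no member and 0% of all genes there. At an unadjusted p under 0.05 there were 6 members and 10.3% of all genes. In males edgeR without the block called no member and 0% of all genes, with 1 member and 2.59% of all genes at that level. For the female minus male difference it called no member and 0% of all genes, with 1 member and 2.89% of all genes at that level. DESeq2 called no member in these last 2 comparisons. Psmc3ip and Psmb9, both close to the detection limit, gave the extremes in females (1.28 and -0.76). They did so in both sexes together as well (0.41 and -0.51), and in males the extremes were Psmb7 (0.33) and Psmc3ip (-0.47).

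Core against cap was compared by the median of the 14 genes of the alpha and beta rings minus the median of the 17 genes of the base and lid. In female footprints the fitted core median was 0.21 and the cap median -0.02, which is 0.24 apart. Taken per animal, relative to the mean wild type of the sex, core minus cap was -0.07, -0.02 and 0.08 in the wild-type females, against 0.21, 0.21 and 0.20 in the knockouts. The knockout females thus lay close together and above all 3 wild types. In males it was -0.03 and 0.03 against -0.01 and 0.09, which overlapped, and the fitted value was 0.06. With the mean in place of the median the female value was 0.14, and without wild-type females 1 and 2 it was 0.12. No test is given, because the genes were grouped with these data known.

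In female input core minus cap was 0.09 by the fit. The animals had -0.01, 0.02 and -0.03 in wild types, against 0.14, 0.12 and 0.04 in knockouts. In male input the fit gave 0.03. Relative to input, the female value was 0.05 and the male value 0.09, and the animals of both genotypes overlapped: wild-type females spanned -0.08 to 0.16 and knockout females -0.02 to 0.18. The female value ran from -0.01 (without wild-type female 1) to 0.13 (without wild-type female 3) over omissions of 1 animal, and lay below 0 also without knockout female 3.

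**Figure D3:**
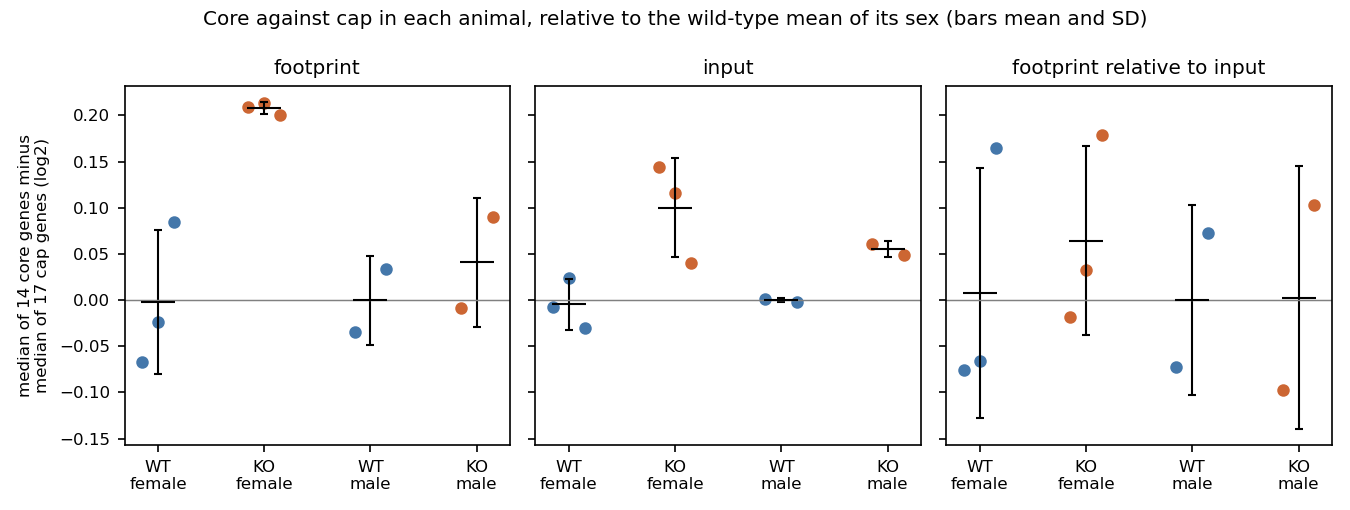
Median of 14 core genes minus median of 17 cap genes per animal (log2), for footprints, input and footprints relative to input, each relative to the wild-type mean of the sex. Points are animals and bars the mean and SD; in footprints the knockout females (0.20 to 0.21) lie above the wild-type females (-0.07 to 0.08).

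Footprint density in wild type was the footprint level per 1000 codons of coding sequence. It was not divided by input, so it holds the amount of mRNA as well as the ribosomes on each mRNA. The highest were Psmb1 with 912 ± 59.2 CPM per 1000 codons, Psmb7 with 634 ± 86.8 and Psma1 with 626 ± 64.1 (SD, n = 5 animals). Psmb1 shares 25.0% of its 28-base stretches with transcripts of other genes. The lowest were Psma8 (0.936), Psmb11 (1.98) and Psmc3ip (4.09). The median of all genes tested was 46.0. The 14 core subunits enter the barrel in equal numbers, yet their footprint densities ran from 15.7 (Psma3) to 912, a 58.0-fold span. Among the 6 core genes with under 10% of their 28-base stretches in other transcripts the span was 2.24-fold, from 283 for Psma7 to 634. In the cap it was 5.17-fold for all 17 genes and 4.37-fold for the 13 such genes, from 143 for Psmd1 to 623 for Psmc5. Psmd1, a base scaffold, and the receptor Psmd4, at 457 ± 95.5, belong to the same subcomplex. Psmb5, Psmb6 and Psmb7 had 192, 337 and 634, and of these Psmb5 shares 86.7% of its stretches and Psmb6 20.8%. The inducible subunits Psmb10, Psmb8 and Psmb9 had 47.0, 7.44 and 6.20.

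In wild type the footprint level relative to input differed from the typical gene for 28 of 42 members: 17 were higher and 11 lower. Over all genes tested 75.3% were called, 37% higher and 38.3% lower, so the members' 66.7% is below that background. The highest were Psmb2, a structural beta subunit (1.56 ± 0.09), Psmb9 (1.27 ± 0.32) and Psma1 (1.01 ± 0.07). The lowest were Psma5 (-2.07 ± 0.14), Psmc1 (-1.57 ± 0.06) and Psme4 (-1.49 ± 0.08). Of the lid genes 6 of 8 were higher and none lower.

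Sequence shared with other genes, mostly processed pseudogenes, went along with these values. Psma5 has 90.4% of its 28-base stretches in transcripts of other genes and Psmc1 has 53.4%. The 14 members that share at least 10% had a median of -0.53, and 3 of them lay above 0. The 28 others had a median of 0.21, and 19 lay above 0. Across the 42 genes, which are not replicates, Spearman's rho between the shared percentage and the ratio was -0.45. Psme4 shares none and is low, and Psmd11 shares 54.0% and is at 0.52. How the authors' counting treated reads with several matches is not stated in the sources at hand, and its part in these ratios was not tested. For the genotype differences rho with the shared percentage was 0.17 in female footprints and 0.22 in male ones. In input it was 0.15 in females and -0.15 in males, and in the ratio 0.01 in females and 0.40 in males.

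**Figure D4:**
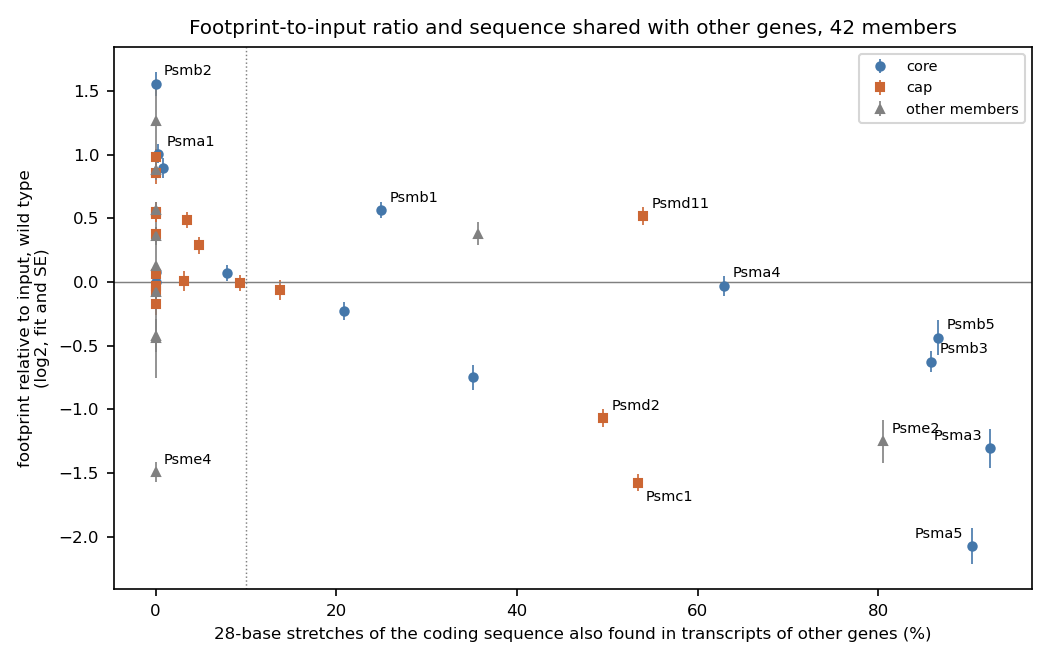
Footprint level relative to input in wild type (log2, fit and standard error) against the percentage of each coding sequence's 28-base stretches found in transcripts of other genes, for 42 members. The dotted line marks 10%; right of it 3 of 14 members lie above 0, and left of it 19 of 28 do.

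Base composition also went along with the footprint differences. Across the members, rho between the G or C share at the third codon position and the female footprint difference was -0.24, and across 12960 genes it was -0.36. In the female ratio it was -0.28 and -0.41, and in female input 0.11 and 0.04. Male footprints gave -0.26 and -0.19, and the male ratio -0.19 and -0.11. Psma1 and Psmc6, both above 0 in female footprints, have 36.5% and 36.0% G or C there. Psmc3 and Psmc4, both below 0, have 67.0% and 68.2%. Psmd12 (57.2%) and Psmd6 (53.7%) lie between them. Other members went against the relation: Psmb3 and Psmd3 have 72.7% and 72.6% and lay above 0, and Psme4 has 39.6% and lay below 0. For the share of codons read by queuosine tRNAs rho was 0.17 across the members and 0.22 across all genes in female footprints, and -0.24 and 0.10 in male ones. These relations describe genes and their part in the differences was not tested.

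Codon tables show where in an mRNA the footprints lay. They listed 26 members and 971 of their codon positions, and most members only in short windows. Psmd7, a lid subunit that pairs with the deubiquitinase Psmd14, was listed at 200 of 321 codons (62.3%) and Psme4 at 498 of 1843 (27.0%). Between 476 and 1551 footprints per animal fell on Psmd7. Sites with enough footprints were tested in the same way as genes, which was decided after these tables had been seen. Of 66 member sites 7 rose in knockout females and none fell, while 9.13% of all 37618 sites were called and 4.82% were called higher. They are shown here as the sites called among the 66 tested of the 971 listed. Codon 126 of Psmd7, the codon with the most Psmd7 footprints in wild type, is shown with them. Capitals mark the listed codon, counted from the start codon as 0, and the tables do not say which ribosomal site it stands for.
Psmc6 codon 359: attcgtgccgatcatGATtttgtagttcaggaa
Psmc6 codon 363: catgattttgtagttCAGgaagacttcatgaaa
Psmd7 codon 111: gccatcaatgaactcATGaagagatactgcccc
Psmd7 codon 126: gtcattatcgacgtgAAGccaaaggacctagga
Psmd7 codon 228: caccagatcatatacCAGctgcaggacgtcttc
Psmd7 codon 270: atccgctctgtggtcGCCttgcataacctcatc
Psmb2 codon 174: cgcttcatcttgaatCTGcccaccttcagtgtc
Psmb2 codon 192: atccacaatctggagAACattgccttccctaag

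All 8 lie in coding exons. In GRCm38, from the GENCODE annotation and not from the authors' unstated build, Psmc6 codon 359 is chr14:45348609-45348611 in exon 14 on the plus strand and codon 363 follows in the same exon. Psmd7 codons 111, 126, 228 and 270 lie in exons 4, 5, 7 and 7 on the minus strand of chromosome 8, the first at chr8:107584884-107584886. Psmb2 codons 174 and 192 lie in exon 6 on the plus strand of chromosome 4, the first at chr4:126709503-126709505. Listed codons matched this annotation at 971 of 971 positions.

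The highest difference was at Psmc6 codon 359, an aspartate codon GAT that queuosine tRNA reads. It held 28, 15 and 14 footprints in the wild-type females, against 140, 119 and 98 in the knockouts, of 1135853 to 1705276 footprints listed per female. The groups were far apart, and the difference was 2.33 ± 0.36 (adjusted p = 0.00268). The whole Psmc6 gene differed by 0.27 in the gene table. In males the site held 79 and 18 footprints in wild types, of 3032432 and 1071976 listed, and 43 and 55 in knockouts, of 1482421 and 1165964. As the mean of both sexes it was the 1 member site called (1.52 ± 0.28, adjusted p = 0.0159), while 1.54% of all sites were. Codon 363, a glutamine codon, held 7, 3 and 7 footprints in the wild-type females, against 26, 23 and 18 in the knockouts (1.66 ± 0.47, adjusted p = 0.0277). In males it was at 6.67 and 7.16 CPM in wild types, against 4.00 and 5.88 CPM in knockouts.

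On Psmd7 the sites that rose were the methionine codon 111, with 6, 10 and 5 footprints against 54, 25 and 33 (2.07 ± 0.50, adjusted p = 0.0148), the glutamine codon 228 (1.33 ± 0.35) and the alanine codon 270 (1.19 ± 0.35). Psmd7 as a gene differed by 0.08 ± 0.11. Codon 126, a lysine codon, held 14.9%, 13.5% and 17.2% of the Psmd7 footprints of the wild-type females and 7.48%, 9.83% and 10.9% of those of the knockout females. It was not called. In males codon 126 held 5.54% and 11.3% in wild types, against 5.47% and 9.50% in knockouts. The 10 codons with the most footprints held 46.1% of all footprints on Psmd7. On Psmb2 codon 192, an asparagine codon AAC that queuosine tRNA reads, held 27, 35 and 66 footprints against 109, 127 and 130 (1.22 ± 0.38, adjusted p = 0.0440), and the leucine codon 174 differed by 1.73 ± 0.55. In males codon 192 was at 77.6 and 221 CPM in wild types, against 121 and 232 CPM in knockouts. Codon 174 was at 4.28 and 10.0 CPM against 9.00 and 18.8 CPM there, so both overlapped.

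Of the 7 sites 2 are thus queuosine codons and 5 are not. Without knockout female 1 no site was called, and Psmc6 codon 359 was then at 2.21 (adjusted p = 0.0514); it was called in every other omission of 1 animal. Omitting wild-type female 1 left 1 call, omitting wild-type or knockout female 2 left 2, omitting wild-type female 3 left 3 and omitting knockout female 3 left 4. In males edgeR called no member site and 0% of all sites, with 3 member sites and 4.22% of all sites at an unadjusted p under 0.05. The female minus male difference was called at no member site and at 0% of all sites. At an unadjusted p under 0.05 there were 6 member sites and 9.35% of all sites. DESeq2 called 5 member sites in females, and its share over all sites was not computed.

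**Figure D5:**
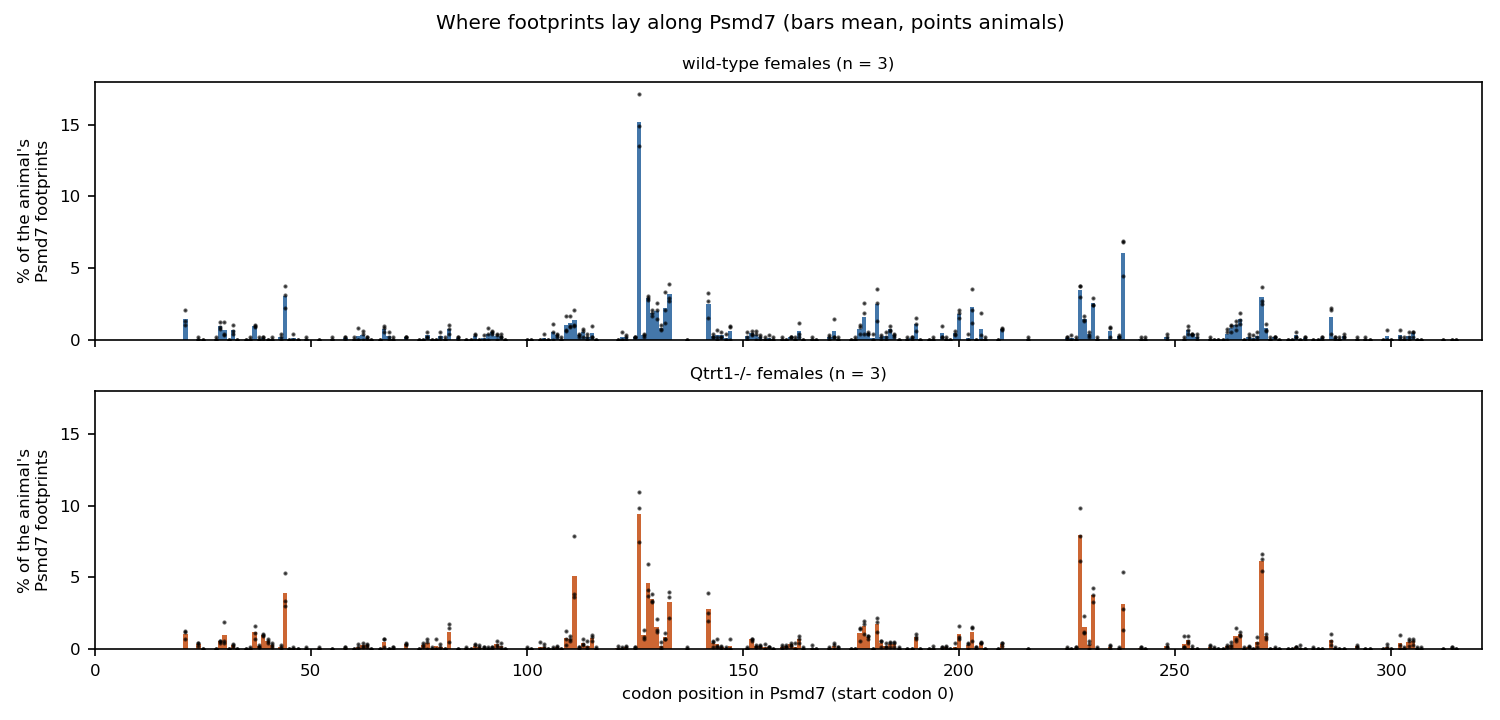
Share of each animal's Psmd7 footprints at each codon (percent) in wild-type females (top) and knockout females (bottom), by codon position from the start codon. Bars are means and points the 3 animals; codon 126 holds 13.5% to 17.2% in wild types, against 7.48% to 10.9% in knockouts, and codons 111, 228 and 270 are higher in knockouts.

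Over all listed codons of member mRNAs, the mean log2 occupancy of the 8 queuosine codons minus that of the others was computed per animal. Occupancy is the authors' ratio of the coverage at a codon to the average over its mRNA. It was 0.40, 0.29 and -0.10 in the wild-type females, against 0.23, 0.11 and 0.44 in the knockouts, which overlapped. In males it was 0.24 and 0.11 against 0.53 and 0.64, with no overlap. The mean of both sexes was 0.23 higher in knockouts, with an SD within groups of 0.19. With the codon 1 upstream the value was -0.01, and weighted by coverage it was 0.48. Psmd7 and Psme4 supplied 62.6% to 70.3% of the codons in each animal.

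Among genes that work with the proteasome edgeR called none in any comparison of the genotypes, with 1 to 6 of the 30 tested per comparison at an unadjusted p under 0.05. In female footprints these were 6, while 25.6% of all genes tested were at that level. DESeq2 called 1 in female footprints, Zfand5 (0.41 ± 0.14, adjusted p = 0.0467), and 1 in input of both sexes, the shuttle factor Ubqln2 (-0.33 ± 0.08, adjusted p = 0.00170). In those comparisons it called 1148 and 409 of all genes. Of 31 listed genes for assembly chaperones, bound factors, regulators of subunit transcription and ubiquitin, 30 were tested. Among the assembly chaperones of the barrel, Psmg1 in female footprints was at 0.17 ± 0.15, Psmg2 at 0.19 ± 0.14, Psmg3 at -0.40 ± 0.28, Psmg4 at 0.45 ± 0.19 and Pomp, which starts the joining of the barrel's rings, at 0.22 ± 0.14 (adjusted p from 0.160 to 0.511). Nfe2l1, the transcription factor that raises subunit genes when proteasome activity is short, was at -0.11 ± 0.11 in female footprints and -0.10 ± 0.06 in female input. In the wild-type comparison of footprints with input 16 of the 30 were higher and 9 lower, while 37% of all genes were called higher and 38.3% lower. The highest was Ubqln2 (2.04 ± 0.08) and the lowest the ubiquitin fusion gene Rps27a (-3.99 ± 0.14). The letters TGACNNNGC, the core of the site that Nfe2l1 binds, were searched on both strands from 250 bases before to 50 bases after each start in RefSeq promoters of GRCm38.p6. They were found in 6 of 40 promoters of the 37 members that matched (15.0%), those of Psmb5, Psmb6, Psmc6, Psmd12, Psmd9 and Psme4, and in 12.4% of all 32851 promoters.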

How the data were processed

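The authors deposited raw counts per gene symbol for 20 libraries, per the file headers, and for each footprint library a codon table. Per the file headers, coverage is counts of footprints on a codon, occupancy is the ratio of that coverage to the average over the mRNA, and the covered share of the coding sequence is a percent. The submitters' processing notes list SAMtools 0.1.19, Bowtie 1.2.2 and 1.0.0, Trimmomatic 0.39 and cutadapt 1.8.1. Genome build, read counter and any use of molecular identifiers: not given in the sources used here.

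Tests used edgeR 4.0.16 in R 4.3.3 (TMM, filterByExpr, quasi-likelihood test on group means, Benjamini-Hochberg over all genes tested). They were also run on simulated counts of independent libraries, with planted differences larger than those called for genes here. That run does not cover gene differences of the size called, or the pairing of libraries within an animal. The ratio was the interaction of assay and genotype over 20 libraries. DESeq2 1.42.0 was an alternative. CPM use TMM library sizes, with a prior count of 2 on the log2 scale. Replicates are separate animals. Deviations from the group mean correlated between the footprint and the input library of an animal (r from 0.26 to 0.55 over genes), so the animal block is printed beside the ratio. Coding lengths, shared sequence and codon positions come from GENCODE M21 transcripts (GRCm38) in place of the protein table first planned. Genes named are those called, the active and inducible beta subunits, activators, Psmd4, Psmd14, base chaperones, and the extremes of each comparison, of the ratio and of the density; others named beyond these were chosen after their values were seen. The members, lists and rules were chosen with earlier results of these data known.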

Additional observations from a re-analysis of the deposited data

How the results depend on the processing

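Alternatives were TMM against DESeq2 size factors, DESeq2, no filter on low counts, each sex fitted alone, a replicate block, and leaving out each animal; the codon-site alternatives and the one on shared sequence were chosen after seeing the data. Of the footprint calls in females, 5 fell to 0 with the replicate block (replicate number within sex) and without wild-type females 1 and 2, and ranged from 0 to 5 over single omissions. The input call in females, 1 member, fell to 0 under those same alternatives and ranged from 0 to 1. With females fitted alone the footprint calls rose to 7. Added to the 5 were Psmb4 (-0.30 ± 0.09, edgeR adjusted p = 0.0489) and Psmc3 (-0.30 ± 0.08, adjusted p = 0.0284), both lower in knockouts. The share of all genes called in that fit was not computed. Calls that were 0 rose in 4 comparisons. For footprints of both sexes DESeq2 gave 2 and no filter 1, and omissions gave 0 to 5. For input of both sexes DESeq2 gave 1. For the ratio in females DESeq2 gave 2, the paired fit with the animal as replicate block 4 and females alone 1. For the ratio of both sexes DESeq2 gave 1, the block 1 and omissions 0 to 2. Of all genes, DESeq2 called 528, 409, 132 and 53 in these 4 comparisons. The 7 codon sites fell to 4 with the block and to 1 without wild-type females 1 and 2, and ranged from 0 to 7. The numbers of knockouts and wild types share no animal, and deviations of same-numbered females correlated at -0.11 to -0.21, so no pairing of genotypes is claimed. The cause of these changes was not tested.

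Core minus cap in female footprints (0.24) was 0.14 with the mean, 0.12 without wild-type females 1 and 2, and 0.18 to 0.26 over omissions. Over omissions it ranged from 0.0153 to 0.150 in male footprints and from 0.0312 to 0.0716 in male input. In the female ratio (0.05) it ranged from -0.0128 (without wild-type female 1) to 0.127 (without wild-type female 3). In the male ratio it ranged from -0.0855 (without knockout male 2) to 0.157. The 58.0-fold span of core densities was 2.24 without shared sequence. The queuosine codon score of 0.23 was -0.00604 with the codon 1 upstream and 0.48 weighted by coverage. The density alternative from codon coverage was not run, because the codon tables list most members in short windows only. Counts of calls in males and for the female minus male difference stayed at 0 in every alternative run. For that difference in input, DESeq2 gave 29 of 42 members no adjusted p. DESeq2 size factors changed no count, and the sign of at most 1 of 42 members per comparison, each within 0.01 of 0. The labels say nothing of how animals were assigned to library preparation.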
